A study of Mus musculus with 2 samples.

Results

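The proteasome genes were taken as every gene whose symbol in the platform's probe annotation begins with Psma to Psmg followed by a number. This rule found 49 genes, measured by 53 probes, of 19321 genes with a symbol on the array. All 49 were above background on both arrays and so entered the comparison of 18498 genes. Psmc3ip and Psme3ip1, which the rule also finds, encode proteins that interact with a proteasome protein and are not subunits, and they are described apart. By Entrez gene all 49 matched RefSeq, with 0 changed symbols.

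The arrays held RNA from the gastrocnemius, a calf muscle, of female mice aged 10 weeks, with 1 array per group. The control mouse carried R26-DTA, a diphtheria toxin A gene at the Rosa26 locus, and by its label no Cre. The depleted mouse carried Pdgfra-CreER together with R26-DTA, so that tamoxifen switches the toxin on in cells with an active Pdgfra promoter, which in muscle are mainly mesenchymal progenitors. The control came from littermates, and both groups were given tamoxifen by intraperitoneal injection on 5 days in a row, starting at 9 weeks. Muscle was collected and frozen 2 days after the final dose. The labels do not say that RNA of several animals was pooled, and the genotypes differ in Cre as well as in the cells depleted. The study asked which genes differ in muscle after depletion of these cells. Array, animal and genotype cannot be told apart, no spread between animals is known, no test of the genotype was possible, and every difference below is one between 2 arrays.

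The proteasome is the protease that degrades ubiquitin-tagged proteins. Its 20S core is a barrel of alpha and beta rings with the protease sites inside, on 3 of the beta subunits. The 19S particle caps the barrel, binds ubiquitin chains, removes them and unfolds the substrate with a ring of ATPases. Interferon and immune cells bring in alternative catalytic subunits that form the immunoproteasome, which favours peptides for antigen presentation. In wasting muscle, genes of the proteasome and of muscle ubiquitin ligases are known to be induced together.

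In depleted muscle, 5 of 11 non-ATPase subunits and 1 of 6 ATPases of the 19S particle, 3 of 8 alpha ring genes and the inducible catalytic subunit Psmb8 were at least 1.5-fold higher. The 3 constitutive catalytic subunits had ratios close to 0. Of the 6 assembly chaperones 0 passed 1.5-fold in either direction, a fold that few of all genes passed (1.96% upward and 1.52% downward). Ratios are depleted over control on a log2 scale after background correction and quantile normalization, and "processed intensity" is the authors' deposited value, in arbitrary units. A ratio of 1.5-fold or more upward was found for 10 of the 49 genes (20.4%), against 1.96% of all 18498 genes. The same size downward was found for 0 of the 49, against 1.52% of all genes. The median log2 ratio was 0.32 over the proteasome genes and -0.0036 over all genes. Ratios above 0 were found for 39 of the 49, against 8765 of all 18498 genes, while 9698 of all genes were below 0. Counts above or below 0 given later for roles and other lists are to be read beside these same totals. The fold of 1.5 is a size and not a test. At 2-fold, 2 of 49 members (4.08%) were higher, Psmb8 and Psmd4, against 0.492% of all genes. In the authors' values 4 members passed 2-fold, these and Psmd2 and Psma7, against 522 of 17919 genes.

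Most proteasome genes were bright. After the normalization used here, which draws dim genes toward 0, bright genes passed the fold more often. Of the 49 genes, 42 were among the 4625 brightest genes of the array, where 10 of 42 (23.8%) were at least 1.5-fold higher against 5.88% of those 4625. In the authors' processed intensities, with a median of 25 on both arrays, 11 of 49 were at least 1.5-fold higher against 9.28% of genes. In them 1 of 49 was at least 1.5-fold lower against 7.25%. Bright genes did not pass more often in these values, with 410 of the 4625 brightest genes at least 1.5-fold higher against 1662 of 17919 genes. Each array was also scaled to its median without quantile normalization, with the offset of 50 from the background correction already added. This put 26 of 49 at least 1.5-fold higher, against 4.84% of all genes. Under that scaling the 4625 brightest genes had a median of 0.24, and 25 of the 42 members among them passed the fold against 15.9% of the 4625. Median scaling also turned 6 weak ratios from below to above 0, those of Psmb6, Psme2b, Psmg1, Psmg2, Psmc3ip and Psme3ip1.

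**Figure D1:**
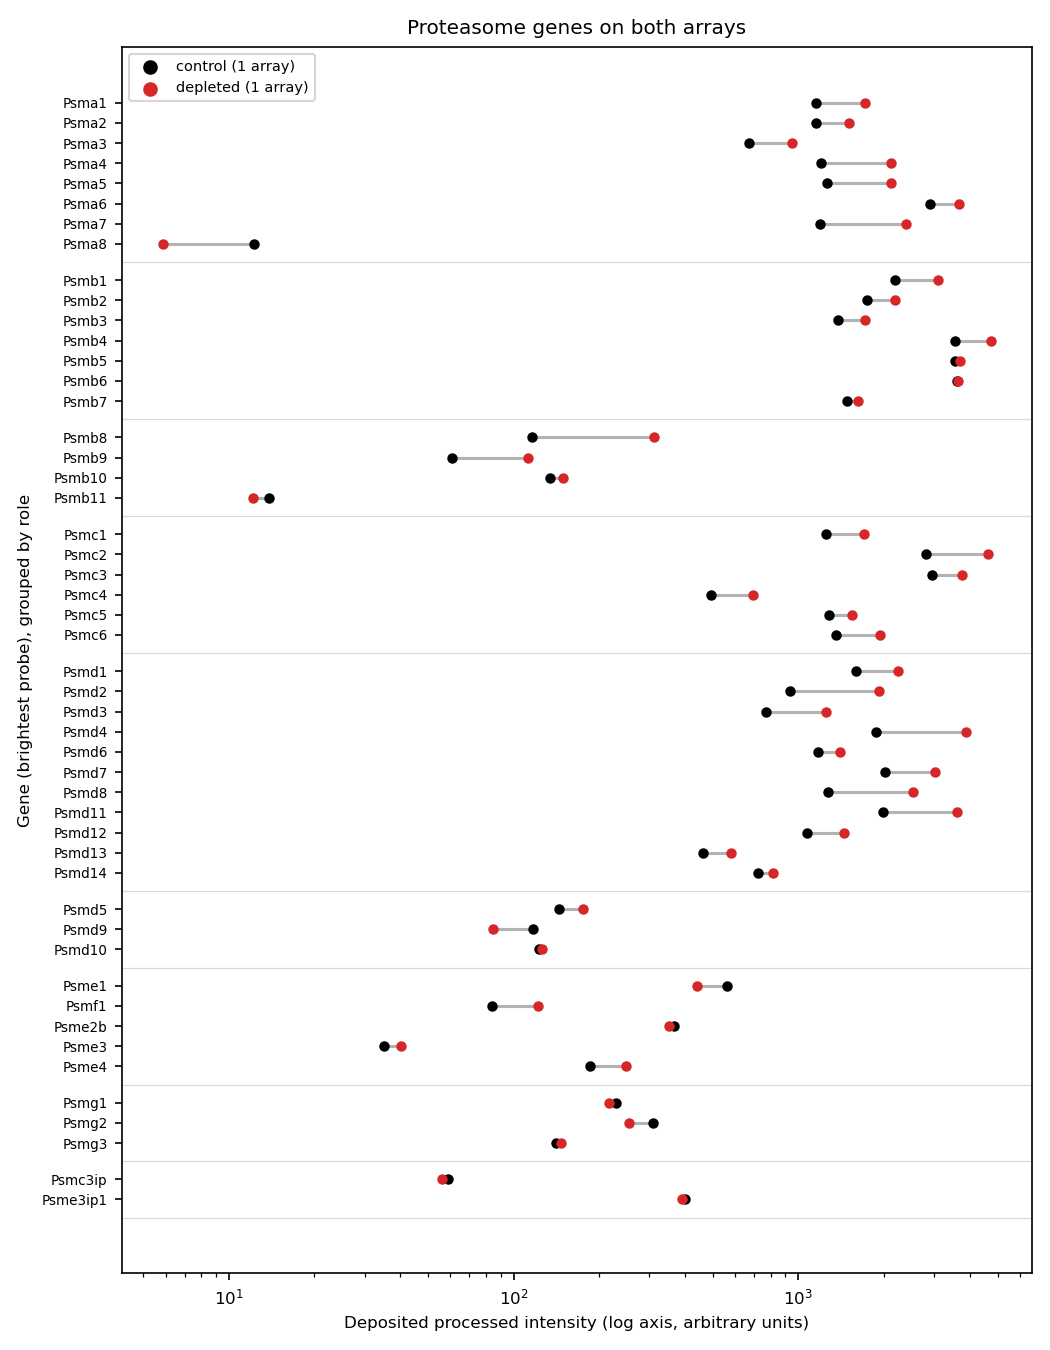
Processed intensity of the 49 genes (log axis, arbitrary units) on the control array (black) and the depleted array (red), one row per gene by its brightest probe, grouped by role, with lines joining the 2 arrays. Rows are to be compared within a gene, since probes differ in brightness. Nearly all alpha, ATPase and non-ATPase genes lie to the right on the depleted array, and the points of Psmb5 and Psmb6 coincide almost fully.

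As a measure of technical scatter, the 1035 genes with a pair of probes above background differed between their probes by a median of 0.10 in log2 ratio, with a 90th percentile of 0.35. Among the 313 of these with both probes at or above the median gene, these values were 0.16 and 0.43. Probes of a gene can bind different transcripts, and this scatter holds no variation between animals. The 10 members past 1.5-fold were picked at a log2 ratio of at least 0.585, so they lie above these percentiles by construction. The lowest of them was Psmd3 at 0.63, whose second, dim probe was at 0.02.

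The alpha ring, which forms the gated ends of the core barrel, had a median of 0.46 over 8 genes. Psma7 was the highest, with spot intensities of 972.1 on the control and 2575.5 on the depleted array. Its processed intensities were 1190.9 and 2382.5, and its log2 ratio was 0.93, or 1.90-fold. Psma4 followed at 0.77, with processed intensities of 1199.5 and 2116.3. Psma5 was at 0.69, with 1261.6 and 2114.2. The other ubiquitously expressed alpha genes did not reach 1.5-fold, at 0.49 for Psma1, 0.42 for Psma3, 0.32 for Psma2 and 0.31 for Psma6. Psma8, the alpha subunit of the testis proteasome, was barely above background, with processed intensities of 12.3 and 5.9. Its log2 ratio was -0.14 after normalization and -1.06 in processed intensities, where it is the member that was at least 1.5-fold lower.

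The beta ring had a median of 0.25 over Psmb1 to Psmb7 and 0 of 7 at least 1.5-fold higher, against 1.96% of all genes. The subunits that carry the protease sites hardly differed between the arrays. Psmb5, the chymotrypsin-like subunit, had processed intensities of 3541.7 on the control and 3697.8 on the depleted array and a log2 ratio of 0.03. Psmb6, the caspase-like subunit, had 3608.5 and 3622.7, with a ratio of -0.03. Psmb7, the trypsin-like subunit, had 1485.7 and 1618.5, with a ratio of 0.05. These 3 ratios lie within the scatter between probes of a gene, and with median scaling their median was 0.37. The beta subunits without a protease site had ratios of 0.46 for Psmb1, 0.37 for Psmb4, 0.27 for Psmb2 and 0.25 for Psmb3. None of these 4 reached 1.5-fold, and those of Psmb2, Psmb3 and Psmb4 also lie under the 90th percentile of 0.43 for probes of bright genes. The ring was divided in this way with its values known.

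The 19S ATPases, whose ring unfolds substrates and feeds them into the core, had ratios above 0 in 6 of 6 genes, with a median of 0.40, and 1 reached 1.5-fold. Psmc2 was the highest at 0.69, with processed intensities of 2796.7 in control and 4635.1 in depleted muscle. Psmc5 was the lowest at 0.20, with 1282.0 and 1544.7. Between them lay Psmc6 at 0.46, Psmc4 at 0.43, Psmc1 at 0.37 and Psmc3 at 0.32.

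The non-ATPase subunits of the 19S particle had the highest median of any role, 0.55, with 11 of 11 genes above 0 and 5 at least 1.5-fold higher. Psmd4, the ubiquitin receptor also called Rpn10, had spot intensities of 1503.9 in control and 4175.3 in depleted muscle. Its processed intensities were 1867.7 and 3884.0, and its log2 ratio was 1.0, or 2.0-fold. Psmd2, the scaffold subunit Rpn1, was at 0.96, with 933.2 and 1921.2. Psmd8, a subunit of the lid, was at 0.91, with 1267.9 and 2527.6. Psmd11, the lid subunit Rpn6, was at 0.82, with 1979.4 and 3602.2. Psmd3, another lid subunit, was at 0.63, with 767.4 and 1246.0. Psmd7, the partner of the deubiquitinase, was at 0.55 and so just under 1.5-fold, while Psmd14, the deubiquitinase itself, was the lowest of the role at 0.13, with 722.9 and 812.2. The scaffold subunit Psmd1 (0.42), and Psmd12 (0.38), Psmd13 (0.26) and Psmd6 (0.21) of the lid lay between.

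Psmd3 and Psmd8 each had a second probe that lay just above the blank spots and showed little difference. The second probe of Psmd3 had processed intensities of 7.9 and 8.6 and a ratio of 0.02, and that of Psmd8 had 6.0 and 8.9 and a ratio of 0.07. With the probes of a gene averaged, Psmd3 was at 0.32 and Psmd8 at 0.49, and 8 members in place of 10 were at least 1.5-fold higher.

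**Figure D2:**
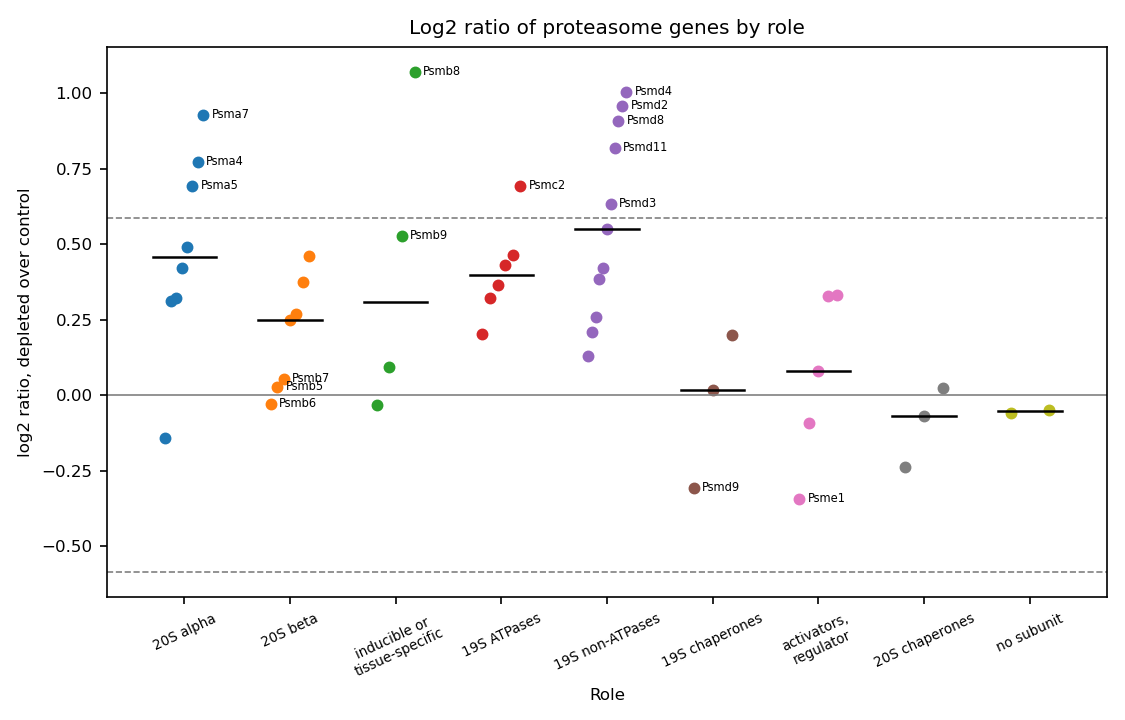
Log2 ratio, depleted over control, of each proteasome gene (points) by role, with the role's median (bar) and dashed lines at a 1.5-fold difference in either direction. The 10 genes above the upper line are Psma4, Psma5, Psma7, Psmb8, Psmc2, Psmd2, Psmd3, Psmd4, Psmd8 and Psmd11, and 0 genes lie below the lower line.

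The distance between roles changed little with the processing of the arrays, except under subtraction of the local background. The median of the non-ATPase subunits exceeded that of the 3 catalytic subunits by 0.52, and by 0.51 to 0.54 over 7 processings. For the alpha ring the distance was 0.43 (0.42 to 0.47), and for the ATPases 0.37 (0.36 to 0.41). All 7 rescale the same spot intensities, and a shift common to bright genes cancels in a distance. Median scaling moved the median of the non-ATPase subunits from 0.55 to 0.87 and that of the catalytic subunits from 0.03 to 0.37. The narrow ranges of these distances therefore do not test whether the roles differ. The 3 catalytic subunits were also set apart with their values known. Subtraction of the local background column, an eighth processing, put these distances at 0.36, 0.44 and -0.17. That column follows the spot's own signal, with a Spearman correlation across spots of 0.941 on the control and 0.972 on the depleted array. For Psmc2 on the depleted array it read 5238.5 against a spot of 4975.6, so that nothing was left after subtraction.

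**Figure D3:**
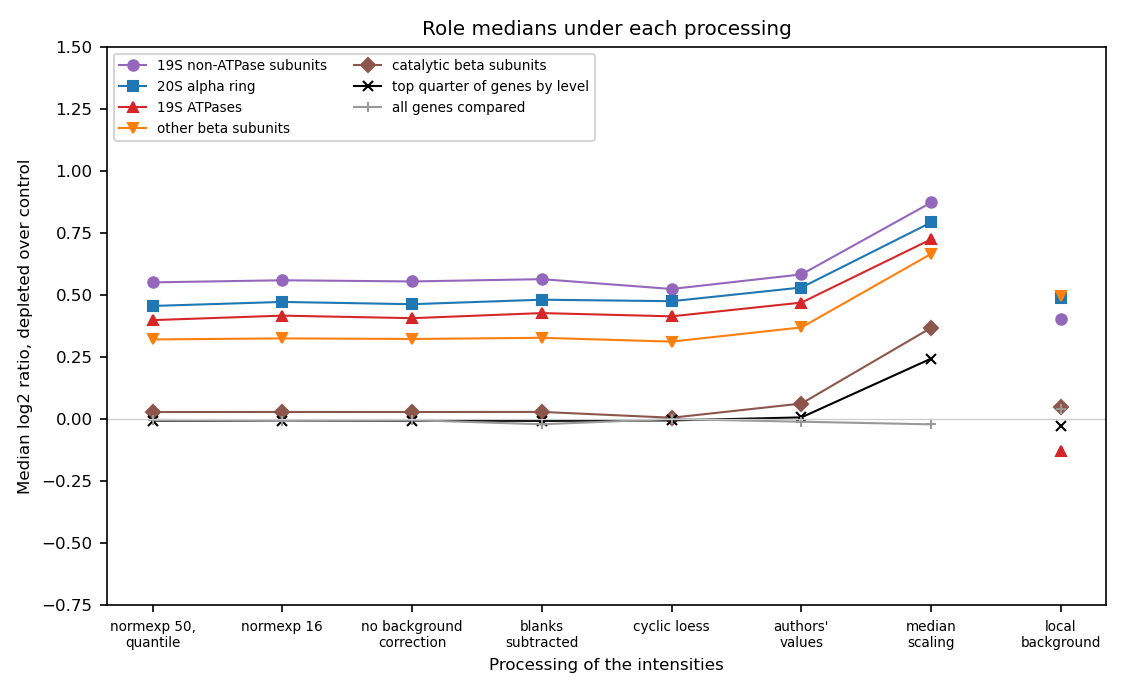
Median log2 ratio, depleted over control, of 5 classes of subunit, of the 4625 brightest genes and of all genes, under each processing of the intensities. Under median scaling all 5 classes and the brightest genes lie higher, with the catalytic subunits at 0.37 and the brightest genes at 0.24, while the order of the classes is kept. With the local background column subtracted the order is lost.

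The inducible catalytic subunits replace the constitutive ones in the immunoproteasome, and their ratios differed from one another. Psmb8, which takes the place of Psmb5, had spot intensities of 127.8 in control and 367.8 in depleted muscle and processed intensities of 116.5 and 310.5. Its log2 ratio of 1.07, or 2.10-fold, was the highest of the members in this processing, and in processed intensities it was 2.67-fold higher. Under median scaling Psmd4 (1.34) lay above Psmb8 (1.29). Psmb9, which takes the place of Psmb6, had processed intensities of 60.6 and 112.7. It was at 0.53 after normalization, which draws dim genes toward 0, and 1.86-fold higher in processed intensities. Psmb10, which takes the place of Psmb7, was at 0.09, with 134.2 and 148.8. Psmb11, the thymus-specific catalytic subunit, lay near background with 13.9 and 12.2.

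Each inducible subunit was set against the constitutive subunit it replaces. The ratio of Psmb8 exceeded that of Psmb5 by 1.04, and by 0.93 to 1.37 over 7 processings. The ratio of Psmb9 exceeded that of Psmb6 by 0.56 (0.36 to 0.92), and that of Psmb10 differed from that of Psmb7 by 0.04 (-0.12 to 0.07). With the local background column subtracted these differences were 1.62, -0.76 and 0.41.

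In RefSeq, Psmb8 lies between Tap1 and Tap2 and Psmb9 beside Tap1, genes of the peptide transporter that serves antigen presentation. Tap1 had processed intensities of 16.7 in control and 30.0 in depleted muscle and a log2 ratio of 0.24, and Tap2 was at 0.07. Of 25 interferon response genes, a list that includes Tap1 and Tap2, 25 were above 0 and 6 at least 1.5-fold higher (24.0%, against 1.96% of all genes), with a median of 0.37. In the authors' processed values 14 of 25 (56.0%, against 9.28% of all genes) were at least 1.5-fold higher, with a median of 0.76 over the 25. Of those past the fold, Ifit2 (9.3), Ifit1 (14.2), Tap1, Gbp3 (20.3), Irf7 (22.8) and Stat2 (24.2) were dim on the control array. They lay under its median of 25, and the others past the fold lay above it. H2-K1, a class I presenting molecule, was at 0.95, Ifit1 at 0.93, Ifit3 at 0.88 and Usp18 at 0.79.

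Markers of macrophages and monocytes, immune cells that express immunoproteasome subunits, were read on the same arrays. Of 21 such markers 20 were above 0 and 11 at least 1.5-fold higher (52.4%, against 1.96% of all genes), with a median of 0.61. In the authors' processed values 16 of 21 passed that fold (76.2%, against 9.28% of all genes). Their summed processed intensity was 7379.5 in control and 14462.9 in depleted muscle. Of these sums, Lyz1 held 1208.9 and 3285.3, and Lyz2 held 1732.3 and 4337.4. The highest ratios were those of Lyz1 (1.37), Lgals3 (1.32), Ctss (1.27) and Lyz2 (1.22). Other markers of the list hardly differed after normalization, among them Csf1r (0.0039), Aif1 (-0.04), Ly6c2 (0.08) and Adgre1 (0.12). Of these, Adgre1 was dim, with 10.1 on the control array, and normalization draws dim genes toward 0. In the authors' processed values Adgre1 was 1.58-fold higher. All 21 were above background, and Cx3cr1 was the dimmest, with 3.3 and 4.3. Of 10 lymphocyte markers above background 0 passed 1.5-fold, against 1.96% of all genes upward and 1.52% downward. Their median was 0.0057 and their sums were 130.0 and 154.9, with Ptprc at 0.32 and Cd4 at -0.17. These markers were dim. In the authors' processed values 3 of 10 (30.0%, against 9.28% of all genes) were at least 1.5-fold higher. They were Cd2 (2.37-fold), Ptprc (1.86-fold) and Ms4a1 (1.84-fold), and 1 marker, Cd4, was at least 1.5-fold lower, against 7.25% of all genes. Ptprc is also expressed by macrophages and monocytes, and Ms4a1 rested on processed intensities of 3.2 and 5.9. Cd3g was below background on both arrays. The part of these cells in the values of Psmb8 and Psmb9 was not tested, and in whole muscle more cells of a type and more RNA per cell cannot be told apart.

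**Figure D4:**
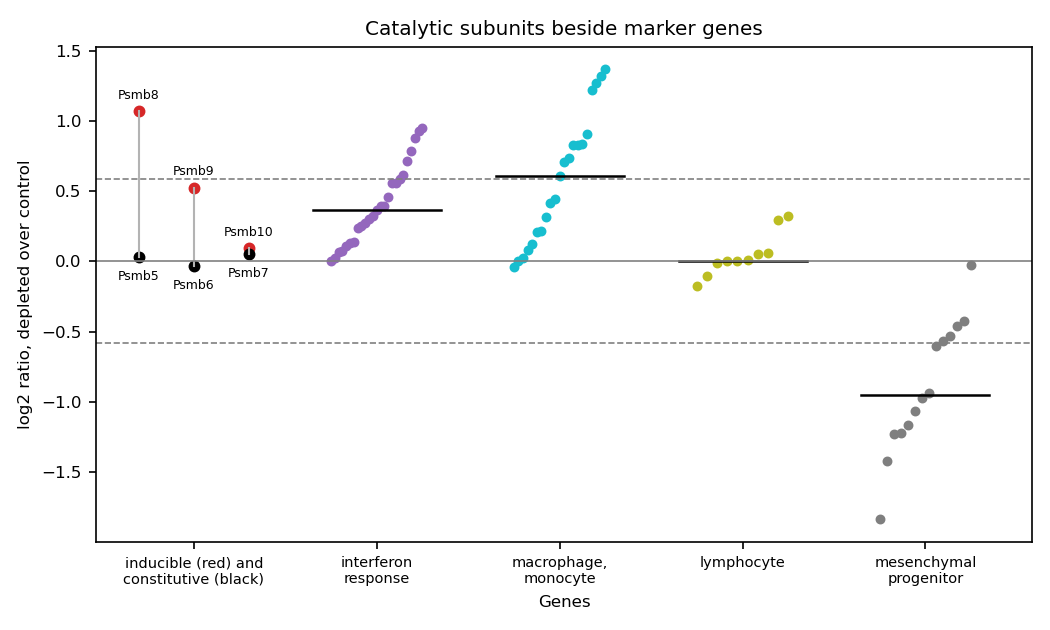
Log2 ratio, depleted over control, of the inducible catalytic subunits (red) joined to the constitutive subunits they replace (black), beside interferon response genes and markers of macrophages and monocytes, lymphocytes and mesenchymal progenitors (points, with the median as a bar and dashed lines at 1.5-fold). Psmb8 lies among the upper interferon and macrophage genes, Psmb10 beside Psmb7 near 0, and 14 of 14 mesenchymal progenitor markers below 0.

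Activators and a regulator of the core had a median of 0.08 over 5 genes, and 0 of them passed 1.5-fold. Of all genes 1.96% passed it upward and 1.52% downward. Psme1, the alpha subunit of the interferon-inducible activator PA28, had processed intensities of 560.6 in control and 441.9 in depleted muscle and a log2 ratio of -0.34. That is the lowest of the members in this processing, while in the authors' processed values Psma8 (-1.06) and Psmd9 (-0.46) lay below it. Its second probe, at 476.8 and 278.7, gave -0.69, so both probes were lower on the depleted array. Under median scaling the brighter probe was at -0.04. Psme2b, a copy of the gene for the PA28 beta subunit, was at -0.09, with 366.2 and 349.9, and its probe may share signal with that gene, Psme2, which was not analysed here. Psme3, the gene of the nuclear activator PA28 gamma, was dim and at 0.08. Psme4, the activator PA200, was at 0.33, with 185.4 and 248.9. Psmf1, the regulator PI31, was at 0.33, with 84.2 and 122.0.

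The assembly chaperones of the core had a median of -0.07 over 3 genes, which was 0.16 with median scaling, and those of the 19S particle had a median of 0.02. Psmg1, Psmg2 and Psmg3, which build the alpha ring, were at -0.07, -0.24 and 0.02. Psmg2 had processed intensities of 308.5 in control and 255.1 in depleted muscle. Of the chaperones of the 19S base, Psmd5 was at 0.20, Psmd10 at 0.02 and Psmd9 at -0.31, the last with 117.2 and 85.0. The second probe of Psmd5, near background, gave -0.05. Psmc3ip and Psme3ip1, which are not subunits, were at -0.05 and -0.06.

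Genes of the ubiquitin and proteasome pathway under other symbols depended on the processing. Of 21 such genes measured, 16 were above 0, with a median of 0.19. Of the 21, 1 was at least 1.5-fold higher (4.76%, against 1.96% of all genes) and 0 were at least 1.5-fold lower. In the authors' processed values 6 of 21 (28.6%) were at least 1.5-fold higher, with a median of 0.28 over the 21. They were Zfand5, Akirin2, Nfe2l2, Uchl5, Ubqln2 and Nploc4. Of these, Ubqln2 (25.3 in control and 45.9 in depleted muscle) and Nploc4 (16.7 and 33.2) were dim. The same fold was passed by 9.28% of all genes and by 11 of 49 proteasome genes (22.4%). Zfand5, which binds and stimulates the proteasome, was at 0.70, with processed intensities of 1594.0 and 2741.8. Akirin2, which serves the nuclear import of proteasomes, was at 0.57, with 401.9 and 639.9. Uchl5, a deubiquitinase of the 19S particle, and Txnl1, a thioredoxin bound to it, were at 0.51 and 0.46.

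Apart from Nfe2l2, the other genes of the list lay closer to 0 after normalization. Pomp, the maturation factor of the core, was at -0.01, with 1612.3 and 1702.6, and Sem1, the smallest 19S subunit, was at -0.11, with 2364.8 and 2266.3. The unfoldase Vcp, which works upstream of the proteasome, was at -0.07. Nfe2l1, the transcription factor that restores proteasome genes when the protease is blocked, was at 0.23, and its relative Nfe2l2 at 0.51, with 250.3 and 386.6. Ngly1, which processes the product of Nfe2l1, was at 0.19. Among shuttle factors, Ubqln4 was the lowest of the list at -0.40.

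The muscle ubiquitin ligases Fbxo32 and Trim63, which tag proteins for the proteasome in atrophy, were at 3.19 and 2.71 on the same 2 arrays. Fbxo32 had processed intensities of 532.1 in control and 5408.4 in depleted muscle, and Trim63 had 151.5 and 1334.2. Every proteasome gene differed by far less than these ligases. Pdgfra, the marker of the targeted cells, had 273.1 and 116.6, a log2 ratio of -0.94. Of 14 mesenchymal progenitor markers 14 were below 0 and 9 at least 1.5-fold lower, against 1.52% of all genes. Their summed intensities were 24722.5 and 12195.0. All 10 myofibre markers were above background on both arrays. Of these, 1 was at least 1.5-fold lower (Pvalb, -1.25), against 1.52% of all genes, and 0 were at least 1.5-fold higher. The median of the 10 was -0.12, and -0.13 under median scaling. In the authors' processed values 3 of the 10 were at least 1.5-fold lower (Pvalb, Myh1 and Mylpf), against 7.25% of all genes. There the median of the 10 was -0.44, with summed intensities of 360283 and 255057. Those values multiply the spots by 1.27 on the control and 0.939 on the depleted array, which lowers the ratios of genes as bright as these. Endothelial markers had a median of 0.12 over 8 genes, with Cldn5 at 0.83.

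Promoters of the members were read to see whether genes with like ratios share letters that transcription factors of the pathway are known to bind. RefSeq (GRCm38.p6) gave 44 promoters for 41 of the genes, and the 250 bases before the start were searched on both strands. The motifs were TGACNNNGC (core of the antioxidant response element, read by Nfe2l1 and Nfe2l2), GAAANNGAA (core of the interferon-stimulated response element), TTCNNNGAA (STAT site), CCAAT (NF-Y box) and GTAAACA (FoxO site), with 0 overlaps between them in these promoters. Shown are the promoters of Psmb8 and Psmd4, the members past 2-fold after normalization, and of Psmb5 and Psmb6, which hold the antioxidant core and hardly differed. Capitals mark the motifs found. They lie at chr17:34197945-34198194, plus strand, at chr3:95042615-95042864, minus strand, at chr14:54617996-54618245, minus strand, and at chr11:70525107-70525356, plus strand, and each ends at the base before the start.
Psmb8: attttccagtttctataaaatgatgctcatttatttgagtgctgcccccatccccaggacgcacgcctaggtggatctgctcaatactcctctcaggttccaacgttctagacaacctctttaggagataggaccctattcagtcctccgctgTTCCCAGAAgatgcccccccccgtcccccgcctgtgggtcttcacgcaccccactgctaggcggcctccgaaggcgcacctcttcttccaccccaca
Psmd4: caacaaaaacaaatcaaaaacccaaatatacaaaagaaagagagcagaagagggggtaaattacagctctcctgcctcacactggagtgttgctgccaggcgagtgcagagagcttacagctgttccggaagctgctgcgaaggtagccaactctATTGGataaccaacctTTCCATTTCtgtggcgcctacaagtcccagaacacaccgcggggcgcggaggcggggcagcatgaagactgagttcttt
Psmb5: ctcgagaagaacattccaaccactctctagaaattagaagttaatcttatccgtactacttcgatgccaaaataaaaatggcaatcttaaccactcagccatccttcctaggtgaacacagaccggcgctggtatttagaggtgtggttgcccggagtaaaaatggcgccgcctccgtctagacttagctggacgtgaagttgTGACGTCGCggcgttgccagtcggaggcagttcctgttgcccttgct
Psmb6: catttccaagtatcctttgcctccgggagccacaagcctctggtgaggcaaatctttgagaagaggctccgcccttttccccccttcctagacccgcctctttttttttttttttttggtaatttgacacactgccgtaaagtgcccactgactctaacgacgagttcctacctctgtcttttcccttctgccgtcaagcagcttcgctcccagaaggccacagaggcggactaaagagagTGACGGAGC

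The Psmb8 promoter held a STAT site and the Psmd4 promoter an interferon-stimulated core and an NF-Y box on the reverse strand. The antioxidant core was found for 5 of 41 genes (12.2%) against 10.2% of all 32851 promoters. The 5 were Psmb5, Psmb6, Psmc6, Psmd9 and Psmd12, whose log2 ratios were 0.03, -0.03, 0.46, -0.31 and 0.38, with a median of 0.03 against 0.33 for the other genes with a promoter. The interferon-stimulated core was found for 3 genes (7.32%, against 7.13% of promoters), Psmb3, Psmd4 and Psmd9, with ratios of 0.25, 1.0 and -0.31. The STAT site was found for 2 genes (4.88%, against 7.02%), Psmb8 at 1.07 and Psmg1 at -0.07. The NF-Y box was the most frequent, in 16 genes (39.0%, against 33.8%), whose median ratio of 0.32 lay close to the 0.33 of the others. The FoxO site was found in 0 of 41 genes, against 3.17% of promoters. A match is only a run of letters, the shares are close to those of all promoters, and genes with the same motif had unlike ratios.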

How the data were processed

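Intensities of 2 arrays were analysed, 1 per group. Per the file headers, the spot intensities are medians of pixels scanned at 635 nm, combined over 3 gains, with background left in. Per the labels' protocols, amplified RNA carrying amino allyl groups was dyed with Cy5, and the extraction text speaks of cells where the source is muscle. The processed intensities that the authors deposited are a straight line of the spot intensities on each array, with slopes of 1.27 (control) and 0.939 (depleted) and a median of 25 on both. The scanner and the authors' software were not given in the sources used here.

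Spots were corrected with normexp (offset 50) in limma 3.58.1 under R 4.3.3, then quantile-normalized as log2 values. The procedure was checked on simulated data. The offset draws ratios of dim genes toward 0. A probe was above background where it was brighter than the blank spots' mean plus 2 SD, at 37.4 (control) and 38.5 (depleted), which 92.6% and 92.8% of probes did. A value below background was raised to the lowest value above it. A gene was represented by its brightest probe, and names came from the platform's annotation, in which 2783 probes have none. Members, lists and the fold of 1.5 were chosen with earlier results of these data known. Named are members at least 1.5-fold different, the extremes of each role, the catalytic subunits and their counterparts and PA28 genes, with up to 4 further pathway genes or markers by size. Genes named beyond these were chosen after their values were seen. The number of arrays limits the precision. Python 3.11.15, numpy 2.4.6, pandas 2.3.3 and matplotlib 3.10.9 were used.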

Additional observations from a re-analysis of the deposited data

How the results depend on the processing

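No paired analysis was possible because there was only 1 array for each genotype. The count of members at least 1.5-fold higher (10) was between 8 and 14 under 11 of the other settings, with the 14 (28.6%) under subtraction of the local background, where 21.4% of all genes passed. It was 26 with scaling to the median and 2 at a 2-fold threshold, by construction. All 10 passed 1.5-fold under 7 settings: an offset of 16, no background correction, blank spots subtracted, the authors' processed values, scaling to the median, cyclic loess and print block medians subtracted, the last chosen after seeing the data. The count at least 1.5-fold lower (0) was 1 with blank spots subtracted and in the authors' values, Psma8 in both, and 9 (18.4%, against 19.6% of all genes) with the local background column subtracted. The median log2 ratio (0.32) was 0.61 with scaling to the median and 0.21 with the local background subtracted. That subtraction turned the sign of 20 of 49 members, and of genes past 1.5-fold it reversed Psma7 (-0.10), Psmc2 (-6.56), Psmd2 (-1.04), Psmd3 (-7.30) and Zfand5 (-2.47). Among the others it put Uchl5 at -5.11, Psmd14 at -1.73, Psmf1 at -0.69 and Akirin2 at -0.42. For Psmc2 and Psmd3 the column exceeded the spot on the depleted array, and elsewhere the cause was not tested. Signal over background limits Psma8, Psmb11, Psme3 and the second probes of Psmd3, Psmd5 and Psmd8.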
